A study of Homo sapiens with 10 samples.

Results

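The epidermal growth factor (EGF) receptor family and its ligands were examined in U2OS cells, an established human osteosarcoma line, after knockdown of the DEAD-box helicase DDX41. The members were taken from a list of symbols, the receptor genes EGFR, ERBB2 and ERBB3, the ligand genes HBEGF, AREG, EREG, TGFA and NRG1, and the feedback inhibitor gene ERRFI1, matched by Ensembl identifier, and all 9 of 9 were found among the 63299 genes of the count tables. RNA sequencing was performed 48 h after transfection with control siRNA (control knockdown) or with a pool of siRNAs against DDX41 (DDX41 knockdown), with 5 libraries per group. All cells were grown in DMEM with serum, and polyadenylated RNA was sequenced from stranded libraries. Total counts ran from 23393764 to 24598860 in the control knockdown libraries and from 21807041 to 24896398 in the DDX41 knockdown libraries. The sample labels do not say whether the replicates were separate cultures, so p-values measure the spread between these libraries, which may be technical.

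The ErbB receptors are tyrosine kinases of the plasma membrane that dimerise and phosphorylate their own tails after a ligand binds, which recruits adaptors and starts the RAS-MAPK and PI3K-AKT cascades. The ligands are made as membrane-anchored precursors and are released by metalloproteases of the ADAM family, and EGFR signalling also induces inhibitors that shut it off, ERRFI1 (also called MIG6) among them. EGFR is commonly expressed in osteosarcoma lines, and cells of the bone lineage respond to several of these ligands.

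DDX41, the targeted gene (ENSG00000183258.11; GRCh38 chromosome 5, 177511577 to 177516961, minus strand), was measured first as a check of the labels. Its level in CPM (read counts scaled to a common library size after TMM adjustment) was 49.1, 49.4, 47.3, 47.2 and 50.5 in control knockdown replicates 1 to 5, and 11.5, 13.7, 12.4, 11.2 and 12.3 in DDX41 knockdown replicates 1 to 5. Each DDX41 knockdown library was below each control library (log2 fold change -1.99 ± 0.0491 (SE), Benjamini-Hochberg adjusted p = 4.47e-24, edgeR quasi-likelihood test). Genes with an adjusted p under 0.01 were called upregulated or downregulated. These are bulk samples, so fewer cells of a kind and less RNA per cell cannot be told apart in any of the values given here.

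All 9 members passed the filter on low counts, 5 were upregulated (ERBB2, AREG, EREG, NRG1 and ERRFI1), 3 were downregulated (EGFR, ERBB3 and TGFA) and HBEGF was not called. Among all 16143 tested genes, 30.3% were upregulated and 32.1% were downregulated, so a call in either direction was common in this comparison. The median log2 fold change of the members was 0.24, and that of all tested genes was -0.00144. Their median absolute log2 fold change was 0.82, against 0.28 over all tested genes. It was 0.26 over the 4 genes of the receptor family and 0.595 over the 10 tested ligand genes, listed members or not. The members were chosen with earlier results of these data known, so larger changes among them may partly reflect that choice. The members differed among themselves in direction, within the receptors and within the ligands.

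Among the receptors, EGFR and ERBB3 fell and ERBB2 rose. EGFR (ENSG00000146648.16; chromosome 7, 55019017 to 55211628, plus strand), the receptor of EGF, TGF-alpha and amphiregulin, was at 50.8, 48.6, 53.5, 56.1 and 48.8 CPM in control knockdown replicates 1 to 5 and at 43.3, 48.5, 46.9, 40.9 and 44.4 CPM in DDX41 knockdown replicates 1 to 5. The groups did not overlap but came close, since control replicate 2 was just above DDX41 knockdown replicate 2, and the difference was small (log2 fold change -0.20 ± 0.0459 (SE), Benjamini-Hochberg adjusted p = 3.34e-04, edgeR quasi-likelihood test). ERBB2 (ENSG00000141736.13; chromosome 17, 39687914 to 39730426, plus strand), which has no known soluble ligand and acts as a partner of the other receptors, was measured at 134, 134, 128, 128 and 141 CPM in the control libraries, replicates 1 to 5, and at 149, 164, 152, 160.2 and 159 CPM in the DDX41 knockdown libraries. All DDX41 knockdown values lay above the control values, of which replicate 5 was the highest (log2 fold change 0.24 ± 0.0317 (SE), Benjamini-Hochberg adjusted p = 1.23e-07, edgeR quasi-likelihood test).

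ERBB3 (ENSG00000065361.14; chromosome 12, 56076799 to 56103505, plus strand), a neuregulin receptor with an impaired kinase that couples to PI3K, had the largest change of the 3 receptor members. It was at 10.9, 11.96, 11.6, 10.2 and 10.7 CPM in control knockdown replicates 1 to 5 and at 6.26, 6.95, 6.09, 6.09 and 5.96 CPM in DDX41 knockdown replicates 1 to 5. The groups were well separated, with DDX41 knockdown replicate 2 the highest of its group (log2 fold change -0.82 ± 0.0711 (SE), Benjamini-Hochberg adjusted p = 1.97e-11, edgeR quasi-likelihood test). ERBB4, the other neuregulin receptor and not a listed member, was low at 0.617 ± 0.107 CPM (SD, n = 5) in control and 0.749 ± 0.178 CPM (SD, n = 5) in DDX41 knockdown libraries. Its groups overlapped and it was not called, with a 95% interval of -0.18 to 0.73 for the log2 fold change. Of the 4 genes of the receptor family, 1 was upregulated and 2 were downregulated, beside 30.3% and 32.1% of all tested genes.

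**Figure D1:**
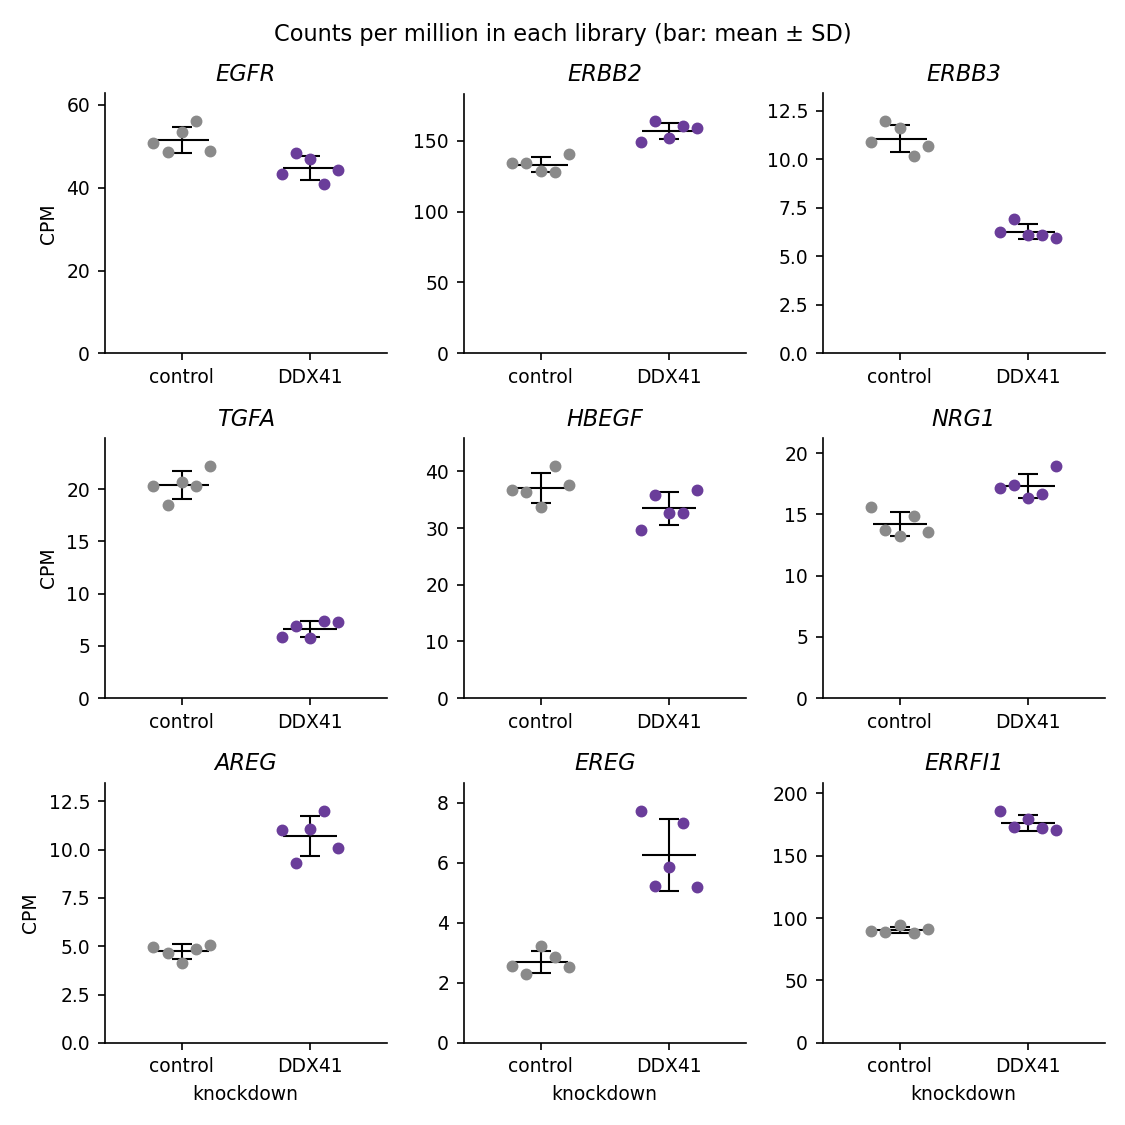
Level of each member in CPM (vertical axes, from 0) in the 5 control knockdown libraries (grey) and the 5 DDX41 knockdown libraries (purple), with a bar at the mean ± SD of each group. The groups overlap for HBEGF only, and the widest gaps relative to the spread are those of ERRFI1 and TGFA.

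Among the ligands, AREG and EREG rose and TGFA fell, with a fitted ratio of DDX41 knockdown to control of 2.25 for AREG, 2.31 for EREG and 0.326 for TGFA. AREG (amphiregulin, ENSG00000109321.10; chromosome 4, 74445136 to 74455005, plus strand) and EREG (epiregulin, ENSG00000124882.3; chromosome 4, 74365145 to 74388749, plus strand) encode ligands of EGFR, and epiregulin also binds ERBB4. Both genes lie on the same strand, the end of EREG 56387 bases before the start of AREG, with no other tested gene in that gap. AREG was at 4.98, 4.65, 4.12, 4.88 and 5.08 CPM in control knockdown replicates 1 to 5 and at 10.99, 9.29, 11.1, 12.01 and 10.1 CPM in DDX41 knockdown replicates 1 to 5. The lowest DDX41 knockdown library, replicate 2, was still above the highest control library (log2 fold change 1.17 ± 0.0820 (SE), Benjamini-Hochberg adjusted p = 1.69e-13, edgeR quasi-likelihood test). EREG was at 2.57, 2.29, 3.24, 2.87 and 2.54 CPM in the control libraries and at 7.73, 5.21, 5.84, 7.33 and 5.19 CPM in the DDX41 knockdown libraries, in the same order of replicates. Its DDX41 knockdown values were more spread, with replicates 1 and 4 above the other 3, and none overlapped with the control values (log2 fold change 1.21 ± 0.124 (SE), Benjamini-Hochberg adjusted p = 2.45e-09, edgeR quasi-likelihood test).

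Because these neighbouring ligand genes rose together, their promoter windows, 250 bases before and 50 bases from the start site, are shown from RefSeq (GRCh38.p14). The AREG window is chr4:74444886-74445185 and the EREG window is chr4:74364895-74365194, both on the plus strand and written 5′ to 3′. Capitals mark TGACGTCA, the palindromic cyclic AMP response element, and TATAAA, the core of a TATA box, on either strand.
AREG: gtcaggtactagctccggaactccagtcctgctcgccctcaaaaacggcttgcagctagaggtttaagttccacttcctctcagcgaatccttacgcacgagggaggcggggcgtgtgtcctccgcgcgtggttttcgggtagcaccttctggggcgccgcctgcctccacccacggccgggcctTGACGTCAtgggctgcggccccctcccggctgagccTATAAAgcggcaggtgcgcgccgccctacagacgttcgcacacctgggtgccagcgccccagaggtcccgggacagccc
EREG: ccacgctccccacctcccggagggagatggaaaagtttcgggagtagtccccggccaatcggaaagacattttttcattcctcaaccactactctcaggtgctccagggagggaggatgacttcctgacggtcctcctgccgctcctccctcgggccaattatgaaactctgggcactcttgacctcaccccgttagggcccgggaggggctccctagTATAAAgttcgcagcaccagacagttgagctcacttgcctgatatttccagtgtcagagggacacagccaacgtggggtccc
Counted in bases from the start site, with negative positions before it, TATAAA began at -29 in AREG and at -32 in EREG. TGACGTCA began at -65 in AREG and was not in the EREG window. Over all 35116 promoter windows of this length, 11.5% held TATAAA and 1.85% held TGACGTCA on either strand. Windows were listed for 7 of the 9 members (2 each for EGFR and TGFA, none for ERBB3 and NRG1). Of these 9 windows, 3 held TATAAA (AREG, EREG and the window of the downstream EGFR start), and 1 held TGACGTCA. GGGCGG, the GC box, was in 5 of the 9 windows and in 45.0% of all, TGANTCA, an AP-1 motif, in 2 and in 7.71%, and CCAAT in 3 and in 34.6%. These matches describe letters in the windows and were not measured as binding sites.

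AREG and EREG are part of a run of ligand genes on chromosome 4 that also holds EPGN (epigen) and BTC (betacellulin). EPGN had 13 counts in all 10 libraries and was not tested. BTC, on the opposite strand 289754 bases from AREG, was at 0.898, 0.571, 0.715, 0.770 and 0.333 CPM in control knockdown replicates 1 to 5 and at 0.184, 0.521, 0.202, 0.170 and 0.128 CPM in DDX41 knockdown replicates 1 to 5. DDX41 knockdown replicate 2 was inside the control range and the other 4 were below it, and the gene was called downregulated at this low level (log2 fold change -1.43 ± 0.335 (SE), Benjamini-Hochberg adjusted p = 4.02e-04, edgeR quasi-likelihood test). MTHFD2L, the tested gene before EREG, was at 17.1 ± 1.08 CPM in control and 17.7 ± 1.30 CPM in DDX41 knockdown libraries (SD, n = 5) and was not called. Of the 4 ligand genes in this run, 2 rose, 1 fell and 1 was too low to test. Over all tested genes, 30.3% were upregulated and 32.1% downregulated.

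TGFA (ENSG00000163235.15; chromosome 2, 70447284 to 70554193, minus strand), which encodes TGF-alpha, a high-affinity ligand of EGFR, had the largest fall among the members. It was at 20.3, 18.5, 20.6, 20.3 and 22.2 CPM in control knockdown replicates 1 to 5 and at 5.84, 6.91, 5.76, 7.37 and 7.28 CPM in DDX41 knockdown replicates 1 to 5. All DDX41 knockdown libraries were far below the lowest control library, replicate 2 (log2 fold change -1.62 ± 0.0702 (SE), Benjamini-Hochberg adjusted p = 2.38e-18, edgeR quasi-likelihood test). HBEGF (ENSG00000113070.7; chromosome 5, 140332843 to 140346603, minus strand), whose product binds EGFR and ERBB4, was at 36.7, 36.4, 33.6, 40.9 and 37.6 CPM in the control libraries and at 29.6, 35.9, 32.6, 32.6 and 36.7 CPM in the DDX41 knockdown libraries, replicates 1 to 5. The groups overlapped, with DDX41 knockdown replicates 2 and 5 inside the control range, and the difference did not pass the threshold (log2 fold change -0.14 ± 0.0548 (SE), Benjamini-Hochberg adjusted p = 0.0222, edgeR quasi-likelihood test). HBEGF passed as downregulated when control replicate 3 (log2 fold change -0.18) or DDX41 knockdown replicate 5 (-0.18) was left out, and, with all libraries, without a filter on low counts (-0.14). At an adjusted p under 0.05 it would be downregulated too, which makes 4 members, so its call depends on the threshold, the filter and single libraries.

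NRG1 (neuregulin 1, ENSG00000157168.18; chromosome 8, 31639222 to 32855666, plus strand), a ligand of ERBB3 and ERBB4, rose. Its level was 15.6, 13.8, 13.2, 14.8 and 13.5 CPM in control knockdown replicates 1 to 5 and 17.1, 17.4, 16.4, 16.7 and 18.9 CPM in DDX41 knockdown replicates 1 to 5. The groups did not overlap, and control replicate 1 came nearest to the DDX41 knockdown values (log2 fold change 0.28 ± 0.0582 (SE), Benjamini-Hochberg adjusted p = 8.16e-05, edgeR quasi-likelihood test). NRG3, a ligand of ERBB4 outside the member list, was at 4.86, 4.82, 3.91, 5.01 and 4.29 CPM in the control and 1.98, 3.21, 3.06, 1.49 and 2.60 CPM in the DDX41 knockdown libraries. All of its DDX41 knockdown values were below the control values (log2 fold change -0.88 ± 0.143 (SE), Benjamini-Hochberg adjusted p = 7.67e-06, edgeR quasi-likelihood test). EGF itself was not called, at 6.24 ± 0.269 CPM against 6.92 ± 0.493 CPM (SD, n = 5), with a 95% interval of -0.00 to 0.31 for the log2 fold change. NRG2 and NRG4 were low, overlapped between the groups and were not called, with 95% intervals of -0.73 to 0.11 and -0.60 to 0.24. Over the 10 tested ligand genes, 3 were upregulated and 3 downregulated (30.0% each, near the shares of all tested genes), with a median log2 fold change of -0.16.

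**Figure D2:**
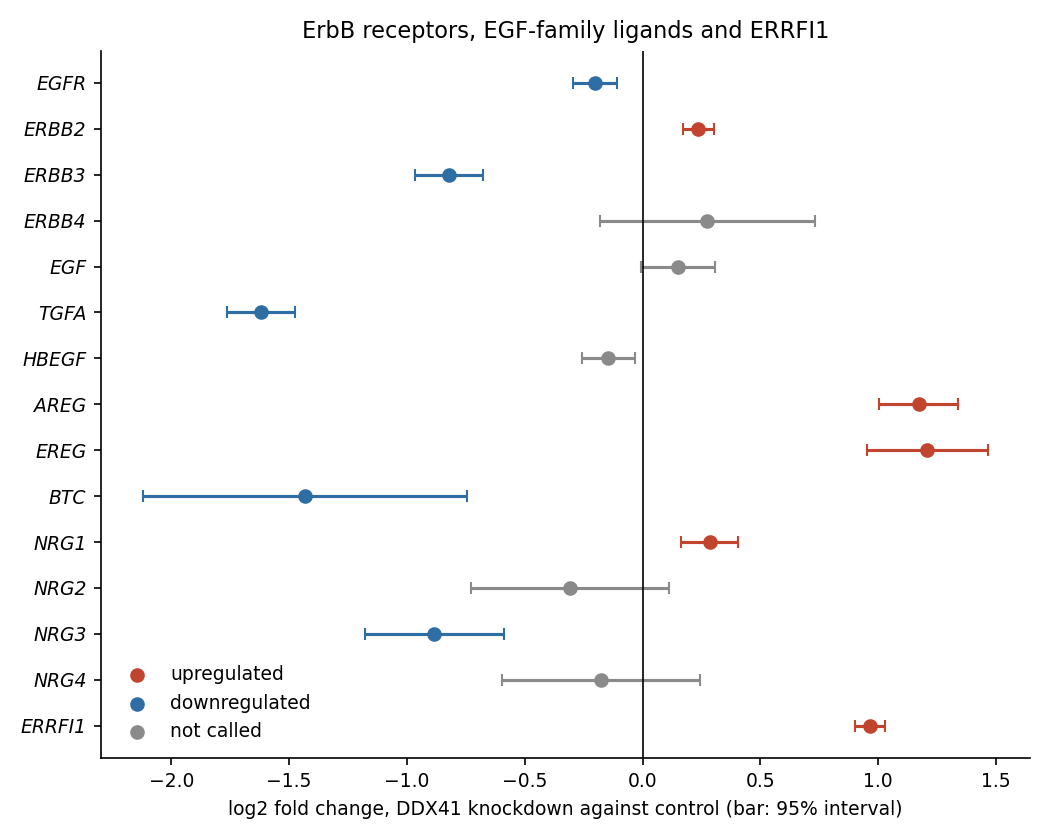
Log2 fold change of DDX41 knockdown against control knockdown (horizontal axis) for each tested receptor, ligand and ERRFI1, with bars for the 95% interval, coloured by call at an adjusted p under 0.01 in the edgeR quasi-likelihood test. TGFA (-1.62) and BTC (-1.43) lie farthest to the left, and EREG (1.21) and AREG (1.17) farthest to the right.

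Levels of different genes were compared per length, as CPM per kilobase of exon. In control knockdown libraries the order of the members by mean level (SD, n = 5) was ERRFI1 (21.6 ± 0.651), ERBB2 (12.9 ± 0.504), HBEGF (12.4 ± 0.880), TGFA (4.15 ± 0.269), EGFR (3.23 ± 0.201), AREG (2.89 ± 0.233), ERBB3 (0.945 ± 0.0607), NRG1 (0.665 ± 0.0470) and EREG (0.473 ± 0.0637). The ranges of ERBB2 and HBEGF overlapped, as did those of EGFR and AREG, so the order within these pairs was inside the spread between libraries. In DDX41 knockdown libraries the order was ERRFI1 (42.2 ± 1.54), ERBB2 (15.2 ± 0.578), HBEGF (11.2 ± 0.961), AREG (6.51 ± 0.632), EGFR (2.81 ± 0.188), TGFA (1.35 ± 0.158), EREG (1.10 ± 0.209), NRG1 (0.810 ± 0.0467) and ERBB3 (0.535 ± 0.0337). AREG stood above TGFA and EGFR after DDX41 knockdown, while TGFA and EREG overlapped. With the longest transcript as gene length, EGFR stood above TGFA in the control and NRG1 above EREG in the DDX41 knockdown libraries, so the order within these pairs depends on the length used.

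On this length-scaled measure the mix of ligand transcripts shifted from TGFA towards AREG, while the summed level of the 11 ligands was 23.1 ± 1.21 in control and 22.9 ± 0.876 in DDX41 knockdown libraries (SD, n = 5). AREG made up 12.98, 12.7, 11.7, 12.1 and 13.1% of the summed ligand level in control knockdown replicates 1 to 5, and 31.1, 24.5, 29.9, 31.1 and 25.9% in DDX41 knockdown replicates 1 to 5. TGFA made up 17.7, 16.9, 19.6, 16.8 and 19.1% in the control libraries and 5.51, 6.07, 5.19, 6.37 and 6.24% in the DDX41 knockdown libraries. Neither share overlapped between the groups. The exact two-sided permutation test over the libraries gave an unadjusted p = 0.00794 for 10 of the 15 receptor and ligand shares. This is the smallest p that 5 against 5 libraries allow. After Benjamini-Hochberg adjustment over the 15 shares, no share passed 0.01. The number of libraries left little room to pass, so this outcome does not show that the shares stayed the same. The 10 shares include those of HBEGF and EGF, whose genes were not called, so this p does not set AREG and TGFA apart. HBEGF was the largest ligand share in each library, with a mean of 53.7% in control and 48.8% in DDX41 knockdown libraries. EREG went from a mean of 2.06% to 4.81%. Among the receptors, ERBB2 held a mean share of 75.3 ± 1.497% in control and 81.7 ± 0.946% in DDX41 knockdown libraries, EGFR 18.9 ± 1.48% and 15.1 ± 0.895%, and ERBB3 5.52 ± 0.383% and 2.88 ± 0.139% (SD, n = 5). Shares of one sum move against each other, so the 15 shares computed are not independent measurements.

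**Figure D3:**
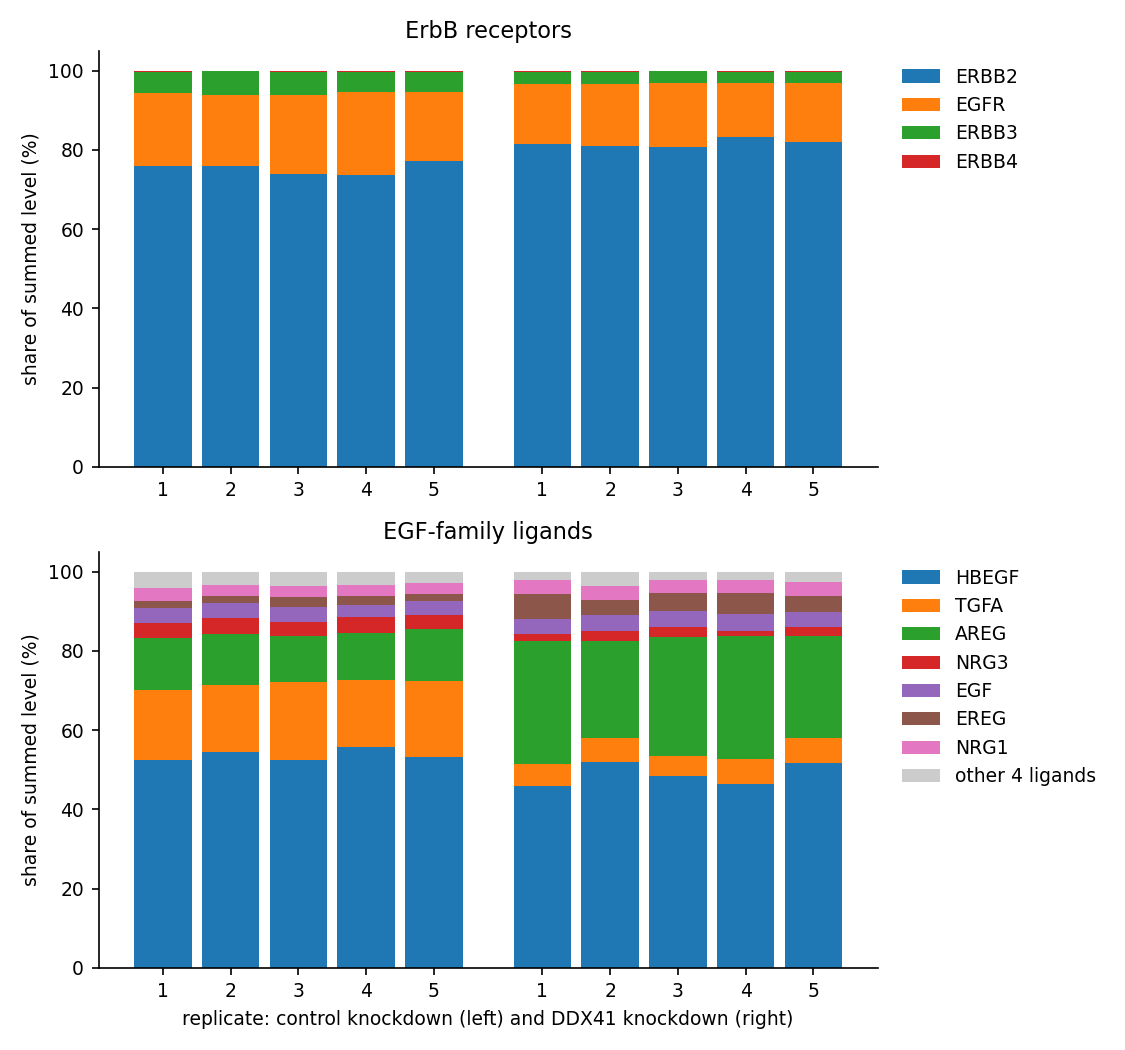
Share of each gene in the summed length-scaled level of the ErbB receptors (upper panel) and of the EGF-family ligands (lower panel), in percent, 1 bar per library with control knockdown on the left and DDX41 knockdown on the right, where the ERBB4 share is too thin to see. The AREG segment widens from a mean of 12.5% to 28.5% and the TGFA segment narrows from 18.002% to 5.88%.

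ERRFI1 (ENSG00000116285.12; chromosome 1, 8004404 to 8026309, minus strand), whose product binds the kinase domains of ErbB receptors and blocks their activation, had the smallest adjusted p among the members. It was at 89.3, 89.2, 94.8, 87.7 and 91.1 CPM in control knockdown replicates 1 to 5 and at 186, 173, 179.6, 172 and 171 CPM in DDX41 knockdown replicates 1 to 5. The libraries of each group lay close together and far from the other group (log2 fold change 0.96 ± 0.0309 (SE), Benjamini-Hochberg adjusted p = 1.98e-21, edgeR quasi-likelihood test). Of 27 tested negative regulators and trafficking genes of the receptors, ERRFI1 among them, 7 (25.9%) were upregulated and 10 (37.0%) downregulated, near the 30.3% and 32.1% of all tested genes, with a median log2 fold change of 0.01. SPRY2, which restrains RAS-MAPK signalling, went from 16.1 ± 0.931 CPM to 32.5 ± 2.86 CPM (SD, n = 5), a log2 fold change of 1.02 ± 0.0572 (SE). RNF41, a ubiquitin ligase that targets ERBB3, and PTPRJ, a receptor tyrosine phosphatase, rose by 0.37 ± 0.0323 and 0.22 ± 0.0375 on the log2 scale (SE). Among genes of at least 5 CPM on average, the largest falls on this scale (SE) were those of the endocytic adaptor EPS15 (-1.22 ± 0.0356), the ubiquitin ligase CBLB (-0.95 ± 0.0550), the endocytic adaptor EPN1 (-0.81 ± 0.0485) and LRIG3 (-0.63 ± 0.0537). PTPRK was at 0 in each library and was left out of the test. Whether this 0 reflects an absent transcript or the counting is not known.

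Of 13 tested genes for the shedding and maturation of the ligand precursors, 7 (53.8%) were upregulated and 5 (38.5%) downregulated, beside 30.3% and 32.1% of all tested genes, with a median log2 fold change of 0.43. The list was written with earlier results of these data known, so these shares may partly reflect the choice of genes. ADAM17, the protease that releases TGF-alpha, amphiregulin, epiregulin and HB-EGF, was at 97.1, 93.3, 99.9, 99.9 and 96.7 CPM in control knockdown replicates 1 to 5 and at 166, 162, 165, 165 and 159.7 CPM in DDX41 knockdown replicates 1 to 5. Each DDX41 knockdown library was above each control library (log2 fold change 0.75 ± 0.0286 (SE), Benjamini-Hochberg adjusted p = 1.12e-19, edgeR quasi-likelihood test). RHBDF1 and RHBDF2 encode the iRhom proteins that carry ADAM17 to the cell surface, and they moved in opposite directions, 0.66 ± 0.0403 and -0.27 ± 0.0503 (log2 fold change, SE). ADAM9 (0.88 ± 0.0272) and ADAM10 (0.58 ± 0.0259), which encodes the protease of EGF and betacellulin precursors, rose as well. ADAM12 (-1.09 ± 0.0475), the ADAM17 inhibitor TIMP3 (-0.38 ± 0.0371) and CNIH1 (-0.29 ± 0.0301), a cargo receptor of the secretory pathway, fell. Transcript levels do not measure protease activity or ligand release, which were not tested.

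Downstream of the receptors, 10 of 31 tested adaptor and effector genes (32.3%) were upregulated and 14 (45.2%) were downregulated, beside 30.3% and 32.1% of all tested genes, with a median log2 fold change of -0.08. Examples are taken from called genes of at least 5 CPM on average. MAPK3, the gene of the kinase ERK1, went from 63.1 ± 1.33 CPM to 31.6 ± 1.97 CPM (SD, n = 5), a log2 fold change of -0.998 ± 0.0399 (SE). NRAS (-0.80 ± 0.0300) and PIK3CA (-0.68 ± 0.0413), the gene of a catalytic PI3K subunit, also fell. MAP2K2 (0.46 ± 0.0396), STAT3 (0.36 ± 0.0274), BRAF (0.35 ± 0.0451) and VAV2 (0.28 ± 0.0362) rose. HRAS was at 0 in each library, and how the counting treated reads that map to several places is not given in the sources used here. A count of 0 allows up to 0.121 to 0.138 CPM (3 counts), depending on the library and for counting error only.

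Among transcripts that EGF is known to induce, 23 of 32 tested genes (71.9%) were upregulated and 5 (15.6%) were downregulated, beside 30.3% and 32.1% of all tested genes. The median log2 fold change of the list was 0.39. This list was written with earlier results of these data known, so its shares may partly reflect the choice of genes. DUSP5, a nuclear phosphatase of ERK, was at 15.7, 16.0, 15.2, 16.9 and 14.9 CPM in control knockdown replicates 1 to 5 and at 35.6, 34.5, 35.2, 36.2 and 33.6 CPM in DDX41 knockdown replicates 1 to 5. Its groups were far apart (log2 fold change 1.15 ± 0.0462 (SE), Benjamini-Hochberg adjusted p = 3.58e-19, edgeR quasi-likelihood test). TRIB1 (1.09 ± 0.0427), the ETS factor gene ETV5 (0.83 ± 0.0337) and the immediate-early gene IER2 (0.76 ± 0.0411) were the next largest rises on the log2 scale (SE) among genes of at least 5 CPM on average. PHLDA1 (-0.80 ± 0.0553) fell, as did LIF (-0.14 ± 0.0320) and the cyclin gene CCND1 (-0.14 ± 0.0256) by small amounts. The groups overlapped for LIF, with DDX41 knockdown replicate 2 (147 CPM) above control replicate 4 (146 CPM), but not for CCND1. VEGFA (-0.12 ± 0.0352) was called down, but not with DESeq2, without a filter, with upper-quartile factors or without any of 3 single libraries (log2 fold change -0.11 without DDX41 knockdown replicate 3, -0.10 without DDX41 knockdown replicate 4 and -0.11 without control replicate 5). Many of these genes also respond to other stimuli, and whether EGF receptor signalling had a part in their levels was not tested.

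**Figure D4:**
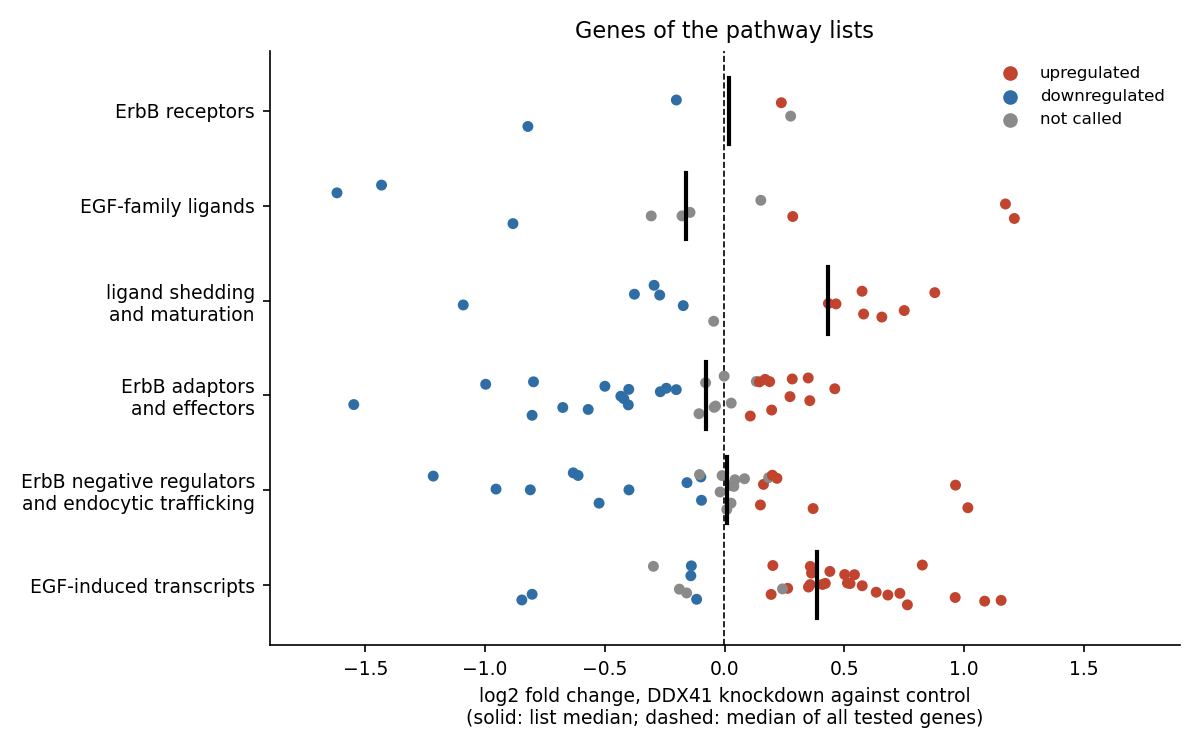
Log2 fold change of DDX41 knockdown against control knockdown (horizontal axis) for each tested gene of the 6 lists, coloured by call at an adjusted p under 0.01 in the edgeR quasi-likelihood test, with a solid line at the median of each list and a dashed line at the median of all tested genes. The EGF-induced transcripts (median 0.39) lie mostly to the right, and the other lists, the shedding genes (median 0.43) among them, lie on both sides. All 6 lists were written with earlier results of these data known.

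The tested genes next to each member on its chromosome were measured to see whether neighbours moved with it. Of the 16 neighbours that are not members, 6 were upregulated, 6 were downregulated and 4 were not called, beside 30.3% up and 32.1% down over all tested genes. EGFR, which fell, had SEC61G (0.24 ± 0.0334) on one side and LANCL2 (-0.32 ± 0.0387) on the other (log2 fold change, SE). ERBB3, which fell, lay between RPS26, which was not called (0.06 ± 0.0298), and PA2G4, which rose (0.27 ± 0.0268). ERBB2 rose between PGAP3, which was not called (0.10 ± 0.0473), and MIEN1, which fell (-0.34 ± 0.0469). HBEGF lay between PFDN1, which was not called (-0.02 ± 0.0363), and the low ANKHD1-DT, which was called up (0.77 ± 0.214) but not without DDX41 knockdown replicate 1 (0.66). WRN, before NRG1, was called down (-0.14 ± 0.0462), but not with DESeq2, DESeq2 size factors or upper-quartile factors. Its call was also lost without DDX41 knockdown replicate 1 (-0.13), 3 (-0.14), 4 (-0.12) or 5 (-0.12), and without control replicate 1 (-0.14), 3 (-0.10) or 4 (-0.13). NRG1 contains the intronic transcript NRG1-IT1 (0.90 ± 0.173) on the same strand, and its reads and those of unspliced NRG1 cannot be told apart. ERRFI1 had PARK7 (0.17 ± 0.0272) and the low SLC45A1 (-0.95 ± 0.249) beside it, and TGFA had FAM136A (0.14 ± 0.0322) and the low ADD2 (-0.76 ± 0.193).

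The gene with the nearest profile to each receptor and ligand member was taken as the one with the smallest root mean square difference over the 10 libraries, in log2 CPM minus the mean of the control libraries, among genes with at least 5 CPM on average. With this difference in brackets, it was ARID2 for EGFR (0.0472), PYGB for ERBB2 (0.0275), PIF1 for ERBB3 (0.0682), GLI1 for TGFA (0.0584), NMNAT1 for HBEGF (0.0573), GRK5 for NRG1 (0.0441), GADD45A for AREG (0.0813) and CPEB2 for EREG (0.167). Many genes were about as near to some members, with 1531 genes within a difference of 0.1 of ERBB2, 706 of NRG1, 617 of EGFR, 296 of HBEGF, 96 of ERBB3 and 8 of TGFA. AREG had 2 such genes and EREG had 0. Counts differ between the members, so these numbers may not be comparable, and the part of low counts in them was not tested. GLI1, the zinc finger factor of the hedgehog pathway, went from 42.9 ± 2.03 CPM to 14.4 ± 1.81 CPM (SD, n = 5). GADD45A, a stress-response gene, went from 33.7 ± 1.45 CPM to 74.2 ± 3.29 CPM.

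Markers of the line and of other cell types were examined beside these values, and the most abundant gene of each list is named by its mean over the 10 libraries. Beside the calls in all of these marker lists, 30.3% of all tested genes were upregulated and 32.1% downregulated. Of 8 genes that mark this mesenchymal line, 6 were tested, 2 were upregulated and 2 downregulated. Their summed level was 9219, 9154, 9389.9, 9042 and 9298 CPM in control knockdown replicates 1 to 5 and 9169.5, 9514, 9271, 9188 and 9522 CPM in DDX41 knockdown replicates 1 to 5. SPARC was the most abundant of them, and COL1A2 and TWIST1 were under 1 CPM in each library. TERT and CDKN2A, silent or lost in this line, summed to at most 0.217 CPM in a library. Of 10 epithelial genes, 7 were tested, and KRT8 and KRT18 rose while KRT5, KRT14 and CLDN4 fell. The epithelial genes summed to 1101, 1145, 1022, 1069.5 and 1095 CPM in control knockdown replicates 1 to 5 and 1661, 1719, 1579, 1774 and 1772 CPM in DDX41 knockdown replicates 1 to 5. KRT8 was the most abundant of them, at a mean of 582 CPM in control and 802 CPM in DDX41 knockdown libraries. KRT18 was at a mean of 444 and 874 CPM, so KRT8 and KRT18 made up most of each sum and of its rise. KRT19, ESRP1 and GRHL2 were under 1 CPM in each library.

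Of 7 haematopoietic genes, 3 were tested and CD34 alone was called, beside 30.3% up and 32.1% down of all tested genes. CD34, the most abundant of them, went from 30.4 ± 1.49 CPM to 4.66 ± 0.900 CPM (SD, n = 5). The haematopoietic genes summed to 34.7, 33.2, 36.5, 36.6 and 36.6 CPM in control knockdown replicates 1 to 5 and 9.98, 9.55, 9.27, 9.67 and 10.2 CPM in DDX41 knockdown replicates 1 to 5. CD3E was at 0 in each library, and PTPRC, SPI1 and CD68 were under 1 CPM. Of 5 endothelial genes, 3 were tested, and VWF (the most abundant), CDH5 and TEK fell, while PECAM1 and KDR were under 1 CPM in each library. The endothelial genes summed to 7.51, 7.51, 7.78, 7.66 and 7.58 CPM in control knockdown replicates 1 to 5 and 3.04, 4.39, 3.99, 3.49 and 3.49 CPM in DDX41 knockdown replicates 1 to 5. The part of these marker changes in the levels of the ErbB receptors and ligands was not tested.

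Some of the genes share exon bases with another gene. In the annotation, 5.53% of the ERBB2 exon bases are shared with MIEN1 and 1.40% with PGAP3, both on the opposite strand and at lower levels. EGFR shares 1.17% with the antisense transcript EGFR-AS1, which had almost no counts. NRG4 shares 38.2% of its exon bases with FBXO22 on the opposite strand, and FBXO22 averaged 96.7 CPM against 1.32 CPM for NRG4. The kit marks strand, but the strand setting of the counting is not given in the sources used here, so the NRG4 value is uncertain. No exon bases of AREG, EREG, TGFA or HBEGF are shared with another annotated gene.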

How the data were processed

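RNA-seq libraries of U2OS cells, 5 after control knockdown and 5 after DDX41 knockdown, were compared, with groups and replicate numbers taken from the sample labels. The deposited tables hold whole read counts per gene, one library each, not normalized. The authors mapped reads to hg38 with STAR (2.7 in the submitters' notes, with bcl2fastq 2.19) and counted them with featureCounts (1.6). Strand setting and handling of reads mapping to several places are not given in the sources used here.

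Identifiers without version were matched to GENCODE 44, with 15936 of 16143 tested genes (98.7%) found. The groups were compared with the robust quasi-likelihood test of edgeR 4.0.16 (R 4.3.3) after its expression filter and TMM scaling. P-values were adjusted by Benjamini-Hochberg over all tested genes, calls were made at an adjusted p under 0.01, and the SE was derived from the F statistic. DESeq2 1.42.0 served as an alternative. Others changed the scaling, filter, threshold, gene length and libraries used. The pipeline was tested on simulated data. Shares were tested with exact two-sided permutation tests. Python 3.11.15, pandas 2.3.3, scipy 1.17.1, statsmodels 0.14.6 and matplotlib 3.10.9 were used. Per-length levels divide CPM by the merged exon length in kilobases. Floors cover counting error only.

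The genes named are the members, the other ErbB receptors and EGF-family ligands, DDX41, in each direction up to 4 called genes of at least 5 CPM that changed most in each of the other 4 lists (ligand shedding and maturation, adaptors and effectors, negative regulators and trafficking, EGF-induced transcripts), the tested neighbours of members, the nearest profiles, and cell type markers. Other genes named, such as those that share exons or were too low to test, were chosen after their values were seen. Some genes that this rule covers are not reported here. The members and lists were chosen with earlier results of these data known.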

Additional observations from a re-analysis of the deposited data

Results flagged for a closer look

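Single libraries were compared with the other 4 of their group for 89 of the named genes, in 178 groups, by the gap to the nearest other library as a share of the group's range. In 8 groups 1 library lay farther out than Dixon's 95% critical value of 0.71. Chance flags about 1 in 20 groups. None of the 9 members was among them.

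BTC was at 0.521 CPM in DDX41 knockdown replicate 2 and at 0.128 to 0.202 CPM in the other 4 libraries of that group, so its low level in DDX41 knockdown rests on the other 4. The same library was high for RUNX2 (26.1 CPM, others 24.1 to 24.4 CPM) and for KRT14 (2.87 CPM, others 1.41 to 1.66 CPM). Control replicate 2 was low for STAT3 (197 CPM, others 205 to 208 CPM) and for SPARC (2749.6 CPM, others 2812 to 2833 CPM). SPRY2 was low in control replicate 1 (14.4 CPM, others 16.3 to 16.6 CPM), and NMNAT1 was low in control replicate 3 (10.2 CPM, others 11.3 to 11.6 CPM). SEC61G was high in control replicate 4 (62.8 CPM, others 58.6 to 59.7 CPM).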

How the results depend on the processing

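No called value changed direction under the alternatives run. Among values that were not called, CDH1 turned to -0.0554 without DDX41 knockdown replicate 3 (range -0.0554 to 0.167), and PFDN1 to 0.00669 without DDX41 knockdown replicate 1 and 0.00493 without DDX41 knockdown replicate 2 (range -0.0459 to 0.00669), as log2 fold changes. The difference in the EPGN share turned from -0.00814 to 0.00912 percentage points without DDX41 knockdown replicate 3 or 5 and to 0.0142 without control replicate 2, within a range of -0.0335 to 0.0142 over the left-out libraries. Of 153 alternative values of the members' fold changes, 150 kept their direction and side of the threshold, and the other 3 were HBEGF. HBEGF was called downregulated without a filter on low counts (-0.14) and without control replicate 3 or DDX41 knockdown replicate 5, with a range of -0.18 to -0.10 over the left-out libraries. Of 1354 values for other named genes, 17 lost and 5 gained a call. Of 165 values of shares, 162 kept their direction, and the other 3 were EPGN. The cause of these changes was not tested.

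Requiring an absolute log2 fold change over 0.5 left 1584 genes upregulated and 2534 downregulated, with 3 members upregulated and 2 downregulated (5 and 4 at an adjusted p under 0.05 with no limit on the fold change). By list the fold change limit of 0.5 left 0 receptors up and 1 down, 2 ligands up and 3 down, 5 shedding genes up and 1 down, 0 effectors up and 6 down, 2 negative regulators up and 6 down, and 13 EGF-induced transcripts up and 2 down. The stricter rule itself removes small changes.

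With the longest transcript as gene length, levels per length in control and DDX41 knockdown were EGFR 5.20 and 4.52, ERBB2 27.0 and 31.8, ERBB3 1.77 and 1.00, AREG 3.84 and 8.67, EREG 0.585 and 1.36, HBEGF 15.7 and 14.2, TGFA 4.95 and 1.61, NRG1 1.13 and 1.38, and ERRFI1 29.2 and 57.0. Shorter lengths raise these levels by construction.

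With the replicate number as a replicate block, 4790 genes were upregulated and 5097 downregulated. Same-numbered libraries did not deviate together (correlations from -0.0524 to 0.0446), so the pairing was not established. Depth limits ERBB4, BTC, EPGN, NRG2 and NRG4, which had few counts.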
